A study of Sus scrofa with 12 samples.

Results

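A group of 10 genes of the bone morphogenetic protein (BMP) pathway was followed in the ovaries of sows with small and large litters: the ligands GDF2 (also called BMP9), BMP2, BMP4, BMP6 and BMP7, the receptors BMPR1A, BMPR1B, BMPR2 and ACVRL1, and the coreceptor ENG. These 10 members were taken by their symbols from a table of 29884 genes. GDF2 was chosen by its FPKM values in these ovaries, which were low and lower still in all 3 ovaries of the large litter group, so its difference between the groups is described here and not tested. The other 9 were listed by name as parts of the pathway. Left ovaries came from sows of 1 commercial herd, 4 days after delivery 4, and 1 library of RNA depleted of ribosomal RNA was made from each ovary. The small litter group (SLS, ovaries ZD2, ZD3 and ZD12) had 8.48 ± 0.53 piglets per litter and the large litter group (LLS, ovaries ZD5, ZD7 and ZD8) had 16.19 ± 0.43, as given in the labels. The methods state SEM as the error of the study's results in general. The labels give neither breed nor sow age. A miRNA table with 6 columns under the same ovary names was also used. Its columns were tied to the groups by these names, and that they are the same ovaries rests on the names alone.

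BMPs are secreted dimers that bring together a type I and a type II receptor kinase on the cell surface. The type I receptor then phosphorylates the transcription factors SMAD1, SMAD5 and SMAD9, which enter the nucleus with SMAD4 and switch on targets such as the ID genes. In the ovary, BMPs from theca cells, granulosa cells and the oocyte restrain luteinization and modulate the response of granulosa cells to follicle-stimulating hormone. A variant of BMPR1B in Booroola sheep raises the ovulation rate. GDF2 is made mainly in the liver, circulates in blood, and acts on endothelial cells through ACVRL1 (also called ALK1) with ENG (endoglin) as coreceptor.

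The gene libraries held between 32272803 (ZD8) and 60903268 (ZD2) reads, recovered from the deposited FPKM values (reads scaled to transcript length and library size). The LLS ovary ZD8 stood apart from the other 5. The summed level of 7 luteal markers, each above 0 in at least 5 ovaries, was 124 FPKM in ZD8 and between 9170 and 12200 FPKM in the others, where STAR, the cholesterol carrier of steroid-producing cells, led the list by mean over the 6 ovaries with 26.4 against 2540 to 5420 FPKM. ZD8 had the highest of the 6 values for 44.6% and the lowest for 26.3% of the 12260 tested genes, so results are given with and without it. In tissue RNA, fewer cells of a type and less RNA per cell cannot be told apart.

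By mean over the 6 ovaries, the lowest level was that of GDF2, although in ZD3 BMP7 was lower (0.172 FPKM). The values of GDF2 were 0.225 (ZD2), 0.261 (ZD3) and 0.815 FPKM (ZD12) in SLS, and 0.0115 (ZD5), 0.00363 (ZD7) and 0 FPKM (ZD8) in LLS. The groups do not overlap, which is the property for which the gene was chosen. The recovered reads were 62, 61 and 195 in SLS and 3, 1 and 0 in LLS, or 318 against 4 in all. At the depth of ZD8, 3 reads would be 0.0206 FPKM, so a level up to that is not detectable there. No ovary reached 1 FPKM, and GDF2 did not enter the tests across genes, which required at least 1 FPKM in at least 3 libraries. Its mean was 0.434 ± 0.331 FPKM in SLS (SD, n = 3 ovaries) and 0.00505 ± 0.00589 FPKM in LLS (SD, n = 3).

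GDF2 lies on the minus strand of chromosome 14 of Sscrofa11.1 from 88506083 to 88513416 and has 1 annotated transcript of 4523 bases in 2 exons. The whole gene sits inside the span of ZNF488, a zinc finger gene on the plus strand from 88474122 to 88526333, and 227 exonic bases are shared between both strands. The libraries kept the strand of the RNA, but whether the counting used it is not stated, so reads of both genes may not be told apart there. ZNF488 had 8, 13 and 31 reads in SLS and 17, 13 and 95 reads in LLS. Its highest value, in ZD8, fell on the ovary where GDF2 had 0 reads. The next genes on the minus strand are RBP3, 2694 bases away, with 2 reads in ZD12 and 0 in the others, and GDF10, 9539 bases away. GDF10, a BMP-related ligand, had 1.93, 0.84 and 0.46 FPKM in SLS and 0.691, 1.12 and 0.088 FPKM in LLS, and its groups overlap.

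**Figure D1:**
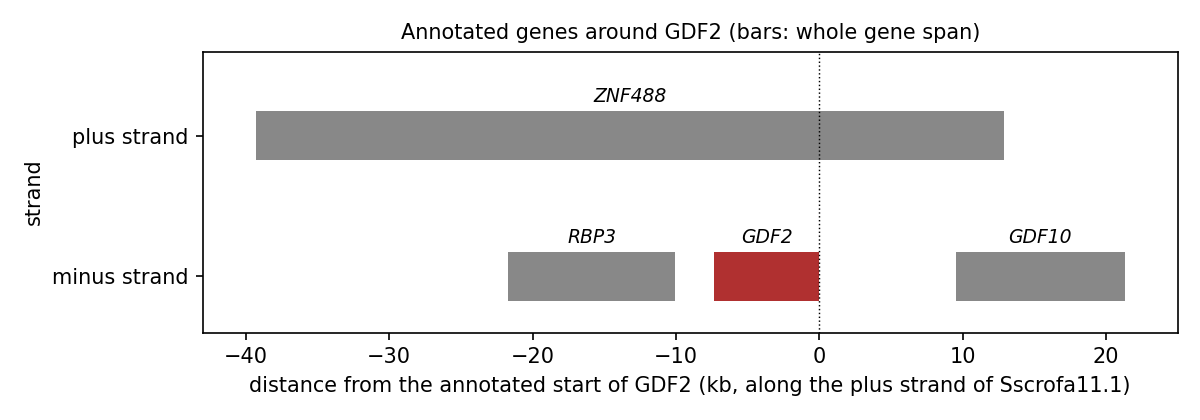
Annotated genes around GDF2 on Sscrofa11.1, drawn as whole gene spans by strand (vertical axis) against the distance in kb from the annotated start of GDF2 (horizontal axis). GDF2 lies on the minus strand inside the span of ZNF488 on the plus strand, with RBP3 and GDF10 as its neighbours on its own strand.

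The liver is the main known source of GDF2, and 8 of 10 liver markers stayed below 1 FPKM in all ovaries, the exceptions being APOA1 and FGB (at most 1.03 FPKM). FGA and FGG were at 0 FPKM in all 6 ovaries, ALB lay between 0.0481 and 0.34 FPKM, and TTR was above 0 only in ZD12 (0.0648 FPKM). APOA1, an apolipoprotein, ran from 101 FPKM in ZD8 to 307 FPKM in ZD2. On log2(FPKM + 1), the genes whose levels followed GDF2 most closely were LOC110260194, LOC110261674 and UBE2C, a ubiquitin-conjugating enzyme of dividing cells. Likeness was the mean absolute difference of log2(FPKM + 1) over the 6 ovaries after centring, with 0.064, 0.069 and 0.094 for these 3 among 10082 candidate genes. The candidates had at least the spread of GDF2 on this scale. The pseudocount of 1 shrinks changes at levels below 1 FPKM, so LLS minus SLS was only -0.49 for GDF2. A likeness on this scale is therefore not a likeness in fold change. UBE2C had 9.03, 7.67 and 11.2 FPKM in SLS and 5.46, 5.92 and 6.38 FPKM in LLS. GDF2 set this order by its group difference, so the lower LLS values of these genes follow from the way they were picked.

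BMP2 and BMP4 are close relatives that signal mainly through BMPR1A and BMPR1B, and their levels moved together from ovary to ovary. BMP2 (chromosome 17, 15750487 to 15762982) had, in the same order of ovaries, 2.23, 1.42 and 2.49 FPKM in SLS and 1.29, 1.15 and 5.22 FPKM in LLS. BMP4 (chromosome 1, 183415989 to 183422888) had 2.53, 1.49 and 2.53 FPKM in SLS and 1.19, 1.34 and 5.99 FPKM in LLS. For both ligands ZD8 was the highest ovary and ZD5 and ZD7 were the 2 lowest. The ratio of BMP2 to BMP4 stayed between 0.858 and 1.09 in the 6 ovaries, while each gene ranged more than that. On log2(FPKM + 1), LLS minus SLS was 0.06 for BMP2 (standard error 0.44) and 0.07 for BMP4 (standard error 0.47), and limma gave both an adjusted p of 0.999. The 95% intervals, from -0.96 to 1.07 and from -1.01 to 1.14, reach about the threshold of 1 in either direction. Without ZD8 the differences turned to -0.44 and -0.47 (adjusted p = 1.0 and 0.997 by limma). The median over all tested genes moved from 0.02 to -0.10 in that fit.

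BMP6, which is made by granulosa cells and oocytes in several species, had the highest mean FPKM of the 5 ligands with the longest transcript of each gene. It had 4.38, 3.04 and 6.07 FPKM in SLS and 2.78, 2.95 and 8.03 FPKM in LLS (chromosome 7, 5058817 to 5208868). The log2 difference was -0.06 with all ovaries (standard error 0.41, limma adjusted p = 0.999) and -0.47 without ZD8 (adjusted p = 1.0 by limma). BMP7, a product of theca cells in rodents, was low, with 0.933, 0.172 and 0.972 FPKM in SLS and 0.131, 0.0752 and 0.701 FPKM in LLS (chromosome 17, 57567770 to 57676516). Its values rested on 33, 28 and 17 reads in ZD3, ZD5 and ZD7, and it did not pass the filter. Fitted without the filter, its log2 difference was -0.37 (limma adjusted p = 0.993). The exact permutation test gave p = 0.2 for BMP7 (two-sided, 3 ovaries against 3, where 0.1 is the smallest p possible).

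With ZD8 left aside, the 4 other ligands among the members shared 1 order. ZD5 and ZD7 lay below all 3 SLS ovaries for BMP2, BMP4, BMP6 and BMP7, which is 4 of the 4 ligands not chosen for it, and for 0 of the 5 receptors and coreceptors. Of all 11985 genes tested without ZD8, 11.5% showed this order, and 10.3% of the 23564 genes above 0 FPKM in any ovary did. Of 12 further BMPs and related ligands, 1 (BMP8A) showed it, 10 overlapped between the groups, and 1 (BMP1) was higher in ZD5 and ZD7 than in SLS, as were 7.53% of the 11985 genes. The 4 ligands share the same ovaries and were looked at after the values were known, so this is a description. The gap is narrow, since ZD3 is the lowest SLS ovary for all 4. BMP6 had 3.04 FPKM in ZD3 (95% exact Poisson interval 2.68 to 3.43, counting error only) and 2.95 FPKM in ZD7 (2.62 to 3.31). BMP7 had 0.172 FPKM in ZD3 (0.118 to 0.241) and 0.131 FPKM in ZD5 (0.087 to 0.189). These intervals overlap, so the depth cannot separate the closest ovaries.

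**Figure D2:**
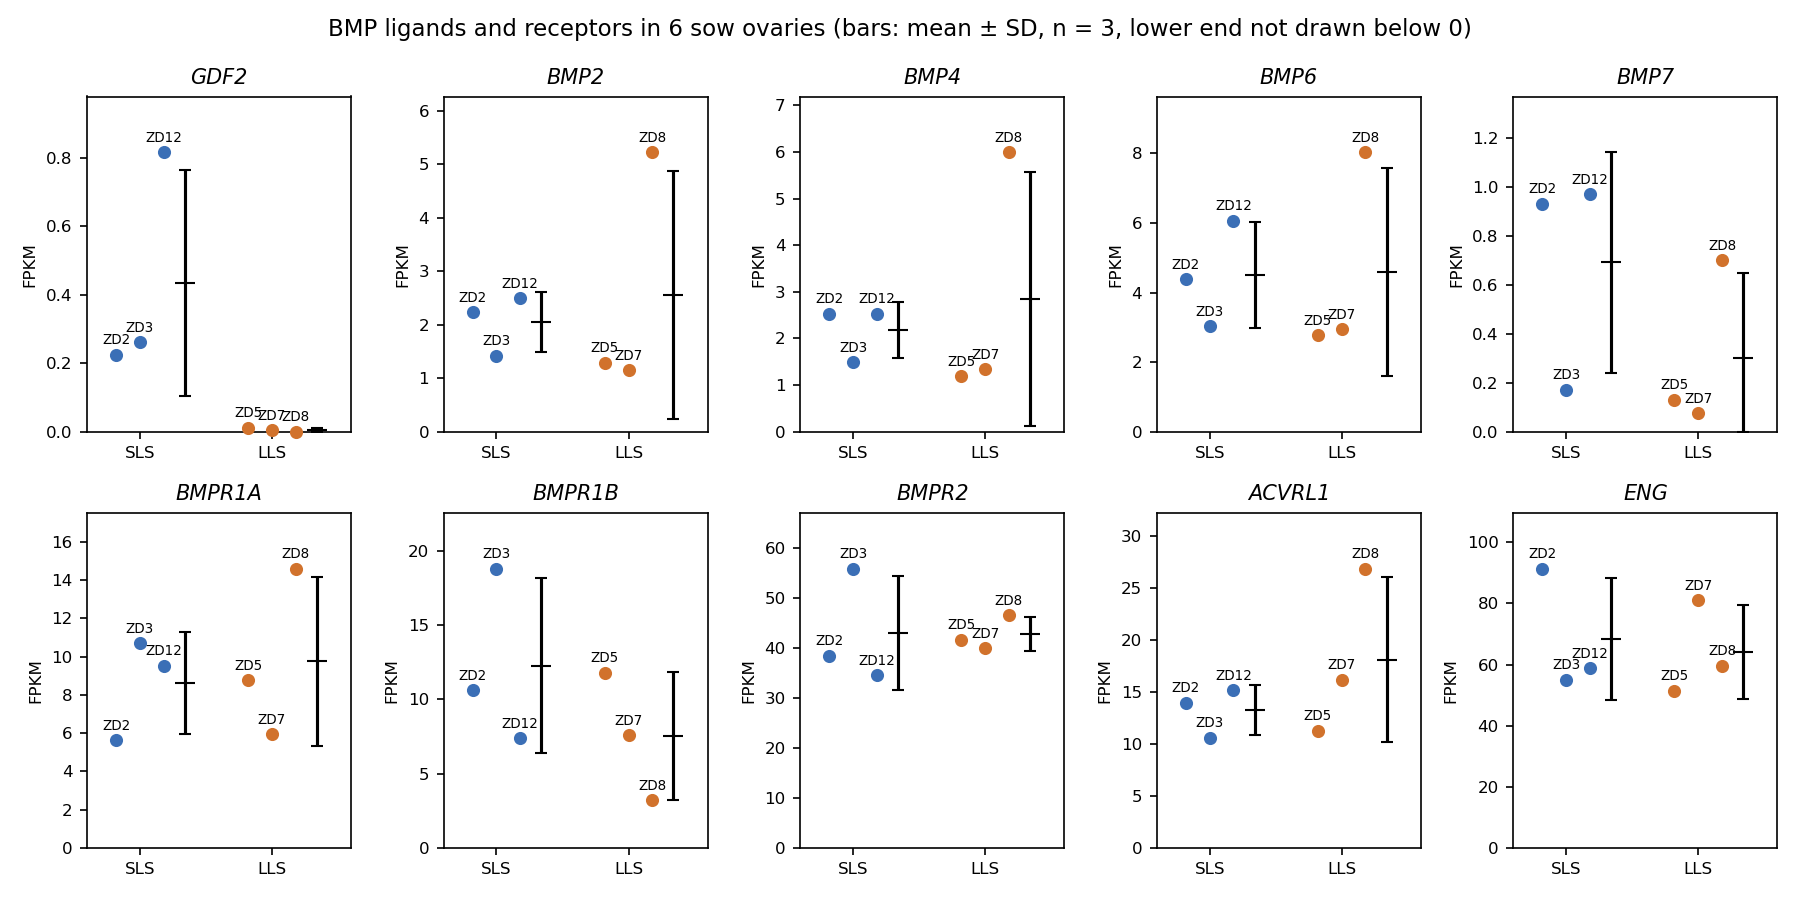
FPKM of the 10 genes (vertical axes, each from 0) in the 3 SLS ovaries (blue) and the 3 LLS ovaries (orange), 1 point per ovary, with the mean and SD beside each group. GDF2 is the gene whose groups do not overlap, ZD8 is the highest ovary for BMP2, BMP4, BMP6, BMPR1A and ACVRL1, and BMPR1B is lowest in ZD8.

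Markers of theca cells and oocytes were high in ZD8, as were BMP2, BMP4 and BMP6. The summed level of 6 theca markers, all detected, was 83.3, 129 and 182 FPKM in ZD2, ZD3 and ZD12, and 78.7, 66.9 and 546 FPKM in ZD5, ZD7 and ZD8. The sum was highest in ZD8 and lowest in ZD5 and ZD7, as for these ligands. Singly, CYP17A1, the androgen-forming enzyme, and NR2F2, a nuclear receptor, were the 2 of 6 markers with ZD8 highest and ZD5 and ZD7 lowest. INSL3, a hormone of theca and other androgen-producing cells, led the list by mean level with 298 FPKM in ZD8 against 2.28 to 45.1 FPKM. Of the 6 markers, 5 were highest in ZD8 and LHCGR, the luteinizing hormone receptor that is also on the luteal list, was lowest there. LHCGR had 27.8, 70.5 and 46.1 FPKM in SLS and 22.5, 24.2 and 10.4 FPKM in LLS. It was lower in every LLS ovary, as were 3.17% of all tested genes, and limma gave it an adjusted p of 0.999 (unadjusted p = 0.0177). The summed level of 7 smooth muscle and pericyte markers was 1970, 884 and 1230 FPKM in SLS and 604, 852 and 1050 FPKM in LLS, with ACTA2, smooth muscle actin, at its head. Of these 7, 3 were highest in ZD8 and 0 lowest there. MYH11 (190 FPKM in ZD8 against 15.5 to 47.1 FPKM) and DES (27.1 against 7.73 to 25.1 FPKM) also had ZD8 highest and ZD5 and ZD7 lowest. All 9 oocyte markers were highest in ZD8, with a sum of 130 FPKM against 6.52 to 23 FPKM elsewhere, led by GDF9. ZD8 was also highest for 44.6% of all tested genes, for 4 of 5 macrophage markers and for 4 of 5 T cell markers. Being highest in ZD8 is thus not particular to theca and oocyte markers. The part of these cells in the ligand values was not tested.

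BMPR1B and BMPR1A are the 2 type I receptors of BMP2 and BMP4, and they went opposite ways in ZD8. BMPR1B had 10.6, 18.8 and 7.4 FPKM in ZD2, ZD3 and ZD12, and 11.8, 7.6 and 3.22 FPKM in ZD5, ZD7 and ZD8. It was highest in ZD3 and lowest in ZD8, and the groups overlap. Its mean was 12.3 ± 5.86 FPKM in SLS and 7.53 ± 4.27 FPKM in LLS (SD, n = 3 each). The log2 difference was -0.69 (standard error 0.47, 95% interval -1.77 to 0.40, limma adjusted p = 0.999), and without ZD8 it was -0.25 (adjusted p = 1.0 by limma). An exact permutation test gave p = 0.5 (two-sided, n = 3 against 3). On log2(FPKM + 1), its SD over the 6 ovaries was 0.75, above that of 88.6% of the tested genes and the widest of the 8 members tested.

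BMPR1A had 5.64, 10.7 and 9.52 FPKM in SLS and 8.76, 5.94 and 14.6 FPKM in LLS, with ZD8 the highest. Its log2 difference was 0.12 (standard error 0.38, adjusted p = 0.999 by limma) and -0.18 without ZD8 (adjusted p = 1.0 by limma). The ratio of BMPR1B to BMPR1A within an ovary was 1.88, 1.76 and 0.778 in SLS and 1.34, 1.28 and 0.221 in LLS. It was below 1 in ZD12 and ZD8, 1 ovary of each group, and the group means of 1.47 ± 0.604 and 0.948 ± 0.63 (SD, n = 3 each) overlap within their spread. Both levels divide by the longest annotated transcript, 15767 bases for BMPR1B and 6341 for BMPR1A, so the ratio compares ovaries, while its distance from 1 depends on these lengths. The last 206 bases of BMPR1A (chromosome 14, 87743270 to 87891790) also overlap MMRN2 on the other strand, which had 8.1 to 16.8 FPKM. BMPR1A and GDF2 lie on the same chromosome, 614292 bases apart.

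RUNX2, a transcription factor of bone that is also induced in luteinizing granulosa cells, followed BMPR1B most closely. RUNX2 had 49.9, 73.8 and 35.8 FPKM in SLS and 51.2, 45.4 and 15.3 FPKM in LLS, with a mean absolute difference of 0.133 from BMPR1B on the centred log2 scale over the 6 ovaries, among 1620 candidates. The next 2 were ADGRG6, an adhesion receptor, and KIF21A, a kinesin, with 0.205 and 0.206. Among these candidates, which had at least the spread of BMPR1B, all 3 were highest in ZD3 and lowest in ZD8, as was BMPR1B, which follows from the way they were picked. Of the 7 luteal markers, 6 were also lowest in ZD8, and PRLR, the prolactin receptor, was highest there at 1.16 FPKM. The summed level of 7 granulosa markers was 577, 391 and 857 FPKM in SLS and 322, 186 and 152 FPKM in LLS. INHA, the alpha subunit of inhibin and the most abundant of these, had 552 ± 175 FPKM in SLS and 171 ± 110 FPKM in LLS (SD, n = 3 each). It was lower in every LLS ovary, as were 3.17% of all tested genes, and limma gave an adjusted p of 0.999 (unadjusted p = 0.0121). FSHR, AMH and FOXL2, further granulosa markers, were highest in ZD8, and CYP19A1, the aromatase, was at 0 FPKM in 5 of the 6 ovaries. The part of granulosa or luteal cells in the BMPR1B values was not tested.

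BMPR1B spans 499194 bases on the minus strand of chromosome 8 (124536648 to 125035841) and has 24 annotated transcripts. The 250 bases before the annotated gene start are printed here for BMPR1B and GDF2, the 2 members with the fewest CpG pairs there, and for BMP2 and BMP4, whose levels moved together. They were read 5′ to 3′ on the gene's strand from the RefSeq genome Sscrofa11.1, at chr14:88513417-88513666 (minus strand), chr8:125035842-125036091 (minus strand), chr17:15750237-15750486 (plus strand) and chr1:183422889-183423138 (minus strand). Capitals mark matches on either strand to the TATA box (searched as TATAAA), to the GC box (searched as GGGCGG), to a palindrome that BMP SMADs can bind (searched as GGCGCC) or to the NR5A1 site (searched as CAAGGTCA), of which the GC box and the palindrome can share bases.
GDF2: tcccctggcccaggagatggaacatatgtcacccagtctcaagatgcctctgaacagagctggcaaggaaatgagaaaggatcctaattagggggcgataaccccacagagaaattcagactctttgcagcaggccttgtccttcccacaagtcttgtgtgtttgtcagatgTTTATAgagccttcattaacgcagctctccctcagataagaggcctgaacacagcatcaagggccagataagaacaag
BMPR1B: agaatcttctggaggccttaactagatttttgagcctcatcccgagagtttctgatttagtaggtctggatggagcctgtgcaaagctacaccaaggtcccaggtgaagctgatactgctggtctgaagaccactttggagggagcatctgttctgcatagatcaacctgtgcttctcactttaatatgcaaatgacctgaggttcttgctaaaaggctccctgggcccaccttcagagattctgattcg
BMP2: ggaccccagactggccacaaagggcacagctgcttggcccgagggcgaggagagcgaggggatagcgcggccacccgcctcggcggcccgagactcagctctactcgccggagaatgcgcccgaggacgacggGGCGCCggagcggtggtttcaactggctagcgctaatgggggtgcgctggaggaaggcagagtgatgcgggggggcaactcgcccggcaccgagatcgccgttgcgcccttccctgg
BMP4: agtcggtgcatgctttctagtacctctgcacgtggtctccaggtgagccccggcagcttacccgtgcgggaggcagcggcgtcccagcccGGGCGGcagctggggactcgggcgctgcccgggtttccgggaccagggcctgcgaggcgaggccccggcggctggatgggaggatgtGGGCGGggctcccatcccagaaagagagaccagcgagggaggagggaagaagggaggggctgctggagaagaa

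GDF2 and BMPR1B had 2 CpG pairs each and 48.8% and 47.6% G + C, while BMP2 had 27 pairs and 70.4% and BMP4 had 19 pairs and 69.6%. The median over 19531 promoters of the same length was 57.6% G + C. The 1 TATA box match of GDF2 starts 78 bases before the gene start. It reads TTTATA on the gene's strand, so TATAAA itself lies on the other strand. A match on either strand was held by 9.76% of all promoters. BMP4 held 2 GC box matches, as 45.9% of promoters held at least 1, and BMP2 held 1 palindrome match, found in 16.1%. No NR5A1 site was found in any of the 10 members (1.17% of all promoters). Of the members not printed, BMPR1A was richest, with 38 CpG pairs and 80.0% G + C, and BMP6 and BMPR1A also held the palindrome. A match is a description of the letters, and other starts of genes with several transcripts were not searched.

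BMPR2, the type II receptor that pairs with the BMP type I receptors, was the steadiest of the tested members. It had 38.5, 55.9 and 34.6 FPKM in SLS and 41.7, 40 and 46.6 FPKM in LLS (chromosome 15, 105971577 to 106132496). The LLS ovaries lay inside the range of the SLS ovaries. Its SD of 0.24 on log2(FPKM + 1) was above that of 14.6% of the tested genes, whose median SD was 0.40. The log2 difference was 0.02 (standard error 0.28, 95% interval -0.63 to 0.67, adjusted p = 0.999 by limma) and -0.04 without ZD8 (adjusted p = 1.0 by limma). The interval leaves out a change by the threshold of 1 in either direction.

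ACVRL1 and ENG form the endothelial receptor pair for GDF2. ACVRL1 had 14, 10.6 and 15.2 FPKM in SLS and 11.3, 16.2 and 26.9 FPKM in LLS (chromosome 5, 17267483 to 17284155), with ZD8 the highest. Its log2 difference was 0.36 (standard error 0.35, adjusted p = 0.999 by limma), and 0.04 without ZD8 (adjusted p = 1.0 by limma). ENG was the most abundant member, with 91.4, 55.1 and 58.8 FPKM in SLS and 51.4, 81.1 and 59.6 FPKM in LLS (chromosome 1, 268309379 to 268343861). The groups overlap, and the log2 difference was -0.08 (standard error 0.33, adjusted p = 0.999 by limma) and -0.05 without ZD8 (adjusted p = 1.0 by limma). ENG shares 19 bases at its end with FPGS on the other strand. The ratio of ENG to ACVRL1 was 6.53, 5.18 and 3.88 in SLS and 4.53, 5 and 2.22 in LLS, lowest in ZD8.

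The endothelial markers did not follow ACVRL1 in ZD8. All 12 were detected in all ovaries, 9 of the 12 were lowest in ZD8 and 0 highest, and their summed level was 461, 437 and 384 FPKM in SLS and 372, 548 and 187 FPKM in LLS. VWF, von Willebrand factor and the most abundant, had 42.2 FPKM in ZD8 and between 56.9 and 127 FPKM elsewhere. PECAM1, a junction protein of endothelial cells, had 25.4 FPKM in ZD8 against 49 to 105 FPKM. ACVRL1 was thus at its highest, and ENG within the range of the other ovaries, where the summed endothelial level was lowest.

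**Figure D3:**
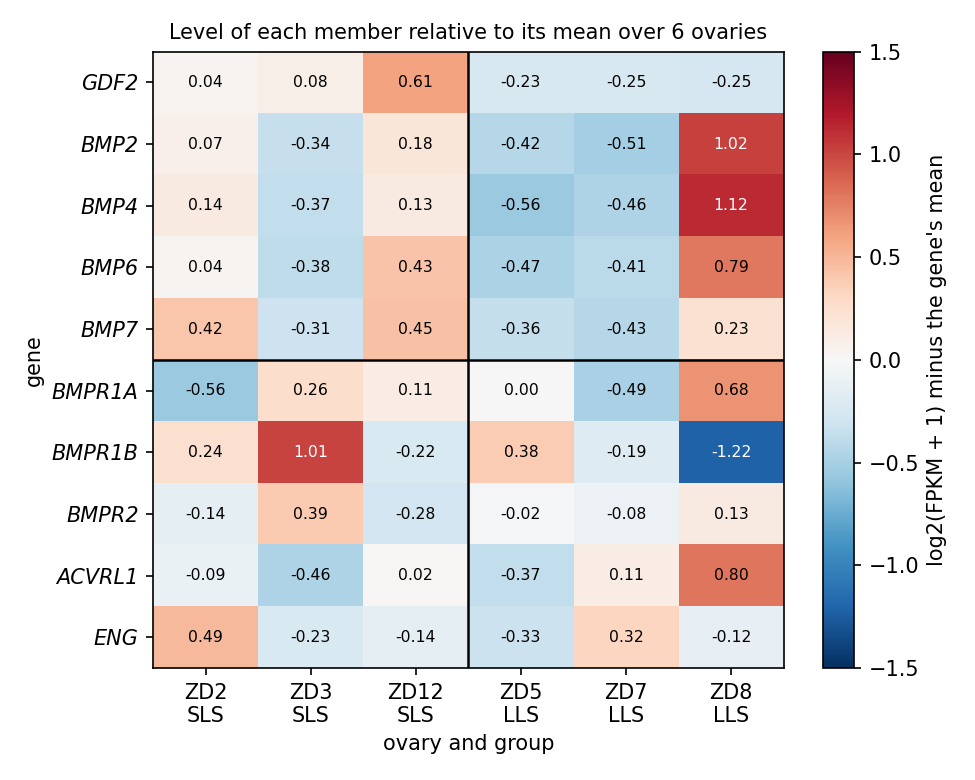
Level of each gene (rows) in each ovary (columns) on log2(FPKM + 1), minus the gene's mean over the 6 ovaries, with the value in each cell and color from blue (lower) to red (higher). BMP2, BMP4 and BMP6 are at 1.02, 1.12 and 0.79 in ZD8, where BMPR1B is at -1.22.

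None of the 8 members that passed the filter passed the call rule between LLS and SLS, an adjusted p below 0.05 with a log2 change above 1 in size (0 of 8 by limma, with 0 at an unadjusted p under 0.05), nor by edgeR's quasi-likelihood test or DESeq2 (0 of 8 each). Over all 12260 tested genes the same rule called 0.0%, with 216 genes at an unadjusted p under 0.05. Over 12250 genes, edgeR also called 0.0% and DESeq2 called 0.163%. Groups without overlap were found for 0 of the 8 in either direction, where 1.95% of all tested genes were higher and 3.17% lower in every LLS ovary. Without ZD8, 0 of the 8 and 0.167% of all genes were called. These p-values measure the spread between 3 sows per group.

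**Figure D4:**
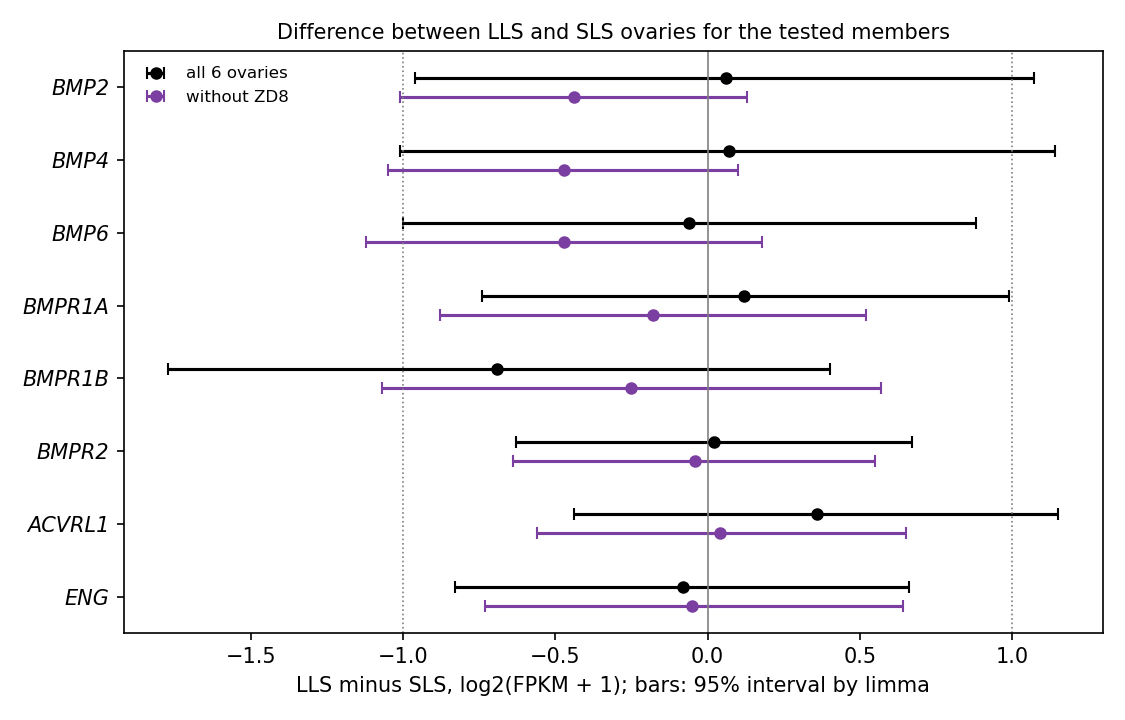
Difference of LLS from SLS on log2(FPKM + 1) (horizontal axis) for the 8 members tested (rows), with 95% intervals by limma, for all 6 ovaries (black) and without ZD8 (purple); dotted lines mark the threshold of 1. All 16 intervals include 0, and without ZD8 the values of BMP2 and BMP4 pass from 0.06 and 0.07 to -0.44 and -0.47.

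By mean FPKM over the 6 ovaries the order was ENG (66.3), BMPR2 (42.9), ACVRL1 (15.7), BMPR1B (9.89), BMPR1A (9.19), BMP6 (4.54), BMP4 (2.51), BMP2 (2.3), BMP7 (0.497) and GDF2 (0.219). The receptors all stood above the ligands by mean, but not in every ovary, since BMPR1B in ZD8 (3.22 FPKM) was below BMP2, BMP4 and BMP6 there. The ranges of ENG and BMPR2 overlap, since ENG in ZD5 (51.4 FPKM) was below BMPR2 in ZD3 (55.9 FPKM). BMPR1B and BMPR1A, BMP4 and BMP2, and BMP7 and GDF2 are among the neighbours whose ranges overlap. The order depends on transcript length. With the shortest annotated coding transcript in place of the longest, BMPR1B moved from rank 4 to rank 2 (43.9 FPKM, 4.44 times higher) and BMPR1A from 5 to 4 (34.8 FPKM), ahead of ACVRL1 (16.4 FPKM), and BMP2 (5.1 FPKM) passed BMP6 (4.54 FPKM) and BMP4 (4.52 FPKM).

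The wider pathway was read from 5 lists, and 0 genes of any list were called by limma. Among 12 further ligands and relatives, 2 were tested. BMP1, a protease that cleaves procollagen and BMP antagonists, had 131 ± 20.9 FPKM in SLS and 172 ± 106 FPKM in LLS (SD, n = 3 each), and GDF9, an oocyte growth factor, had 7.51 ± 3.25 and 18.4 ± 19.3 FPKM, with 40.6 FPKM in ZD8. BMP10, which shares ACVRL1 with GDF2, was listed at 0 FPKM in all 6 ovaries. Among 12 further receptors and coreceptors tested, 10 had a higher and 2 a lower LLS value, and the median log2 difference was 0.19 against 0.02 over all tested genes. Without ZD8 the balance turned, with 7 of the 12 lower and a median of -0.06 against -0.10 over all genes. RGMB, a BMP coreceptor, was higher in every LLS ovary, as were 1.95% of all tested genes. It had 7.48, 10 and 10.1 FPKM in SLS and 13.4, 20.5 and 12.5 FPKM in LLS, a log2 difference of 0.67 (standard error 0.29, unadjusted p = 0.0468, adjusted p = 0.999 by limma). TGFBR2 and TGFBR1, the TGF-beta receptors and the most abundant of this list, had differences of 0.21 and 0.39 (adjusted p = 0.999 by limma for both). Without ZD8 the differences were 0.11 and 0.96, where limma gave TGFBR1 an unadjusted p of 0.0313 and an adjusted p of 0.729.

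Of 18 extracellular antagonists and modulators, 10 were tested, with a median log2 difference of -0.11, 4 higher and 6 lower values, and without ZD8 9 of the 10 were lower with a median of -0.24. FSTL1 and FST, a follistatin-like protein and the activin-binding follistatin, were the most abundant, with 318 ± 109 and 171 ± 47.9 FPKM in SLS and 230 ± 67.5 and 174 ± 123 FPKM in LLS (SD, n = 3 each). FST had 32 FPKM in ZD8, while ZD5 and ZD7 (240 and 249 FPKM) lay above its highest SLS value (214 FPKM in ZD3). Without ZD8 its log2 difference turned from -0.41 to 0.55 (standard error 0.31, unadjusted p = 0.102 by limma). In that fit 7.53% of all tested genes were likewise higher in ZD5 and ZD7 than in every SLS ovary. The difference of FSTL1 went from -0.46 to -0.19. NOG, the BMP antagonist noggin, was at most 0.035 FPKM. All 12 genes of the intracellular SMAD list were tested, 8 with a higher and 4 with a lower LLS value and a median of 0.07, and 10 of the 12 were highest in ZD8. Without ZD8 the balance turned here too, with 9 of the 12 lower and a median of -0.21. SMAD4, the common partner, had 24.2 ± 6.08 FPKM in SLS and 30.8 ± 16.7 FPKM in LLS, and SMAD5 had 23.4 ± 6.49 and 24.9 ± 8.62 FPKM (SD, n = 3 each).

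Of 15 known transcriptional targets, 14 were tested, 5 with a higher and 9 with a lower LLS value and a median log2 difference of -0.14. Without ZD8, 11 of the 14 were lower and the median was -0.26. ID3 and ID1, inhibitors of differentiation and direct targets of BMP SMADs, were the most abundant, with 142 ± 33.2 and 64.2 ± 7.39 FPKM in SLS and 123 ± 23.8 and 55.5 ± 6.33 FPKM in LLS (SD, n = 3 each). ID2 was lower in every LLS ovary, with 18.8, 18.6 and 17.6 FPKM in SLS and 14.7, 11.3 and 14.2 FPKM in LLS. Its log2 difference was -0.43 (standard error 0.24, limma adjusted p = 0.999). It was the 1 gene of this list whose groups do not overlap, where 3.17% of all tested genes were lower in this way. In ZD8, where BMP2, BMP4 and BMP6 were highest, ID1 (55.6 FPKM) and ID3 (142 FPKM) lay within the range of the other ovaries. Of the 15 targets, 4 were highest in ZD8, as were 44.6% of all tested genes. They were SMAD7, an inhibitory SMAD (5.67 FPKM), TMEM100, an endothelial membrane protein (18.1 FPKM), ATOH8, a transcription factor (8.36 FPKM), and CXCL12, a chemokine (58.1 FPKM). Another 2, MSX1 (0.62 FPKM) and GATA2 (1.04 FPKM), were lowest there, as were 26.3% of all tested genes.

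The small RNA libraries were read for the 10 miRNAs with the highest mean level, whose 8-base seed matches were searched in the longest annotated 3′ UTR of 8 members. BMP6 has none annotated, and that of BMPR2 is 1 base long, too short for a match. In the 8 searched, 2 matches were found, and they are printed 5′ to 3′ with the match in capitals, followed by the mature miRNAs with bases 2 to 8, the seed, in capitals.
GDF2 at chr14:88507792-88507821: cagactcagtcTGCACTGAcctctggaaag
BMPR1A at chr14:87889081-87889110: tgaagatactaTCATCTCAatattccttta
miR-148a-3p: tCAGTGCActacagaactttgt
miR-143-3p: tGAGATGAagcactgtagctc

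The match of miR-148a-3p in GDF2 lies at base 1331 of its 3′ UTR of 3058 bases, and that of miR-143-3p in BMPR1A at base 1275 of 3973. Over 18241 genes, 3.84% and 3.89% of the longest 3′ UTRs hold these letters, whose median length is 939 bases. The level of miR-148a-3p was 69650, 59230 and 59940 RPM (reads scaled to library size) in SLS and 43550, 53880 and 71900 RPM in LLS, and the groups overlap. That of miR-143-3p was 73890, 77240 and 71600 RPM in SLS and 57950, 48260 and 90260 RPM in LLS. Both miRNAs were highest in the column named ZD8, the name of the ovary where GDF2 had 0 reads and BMPR1A its highest level. A seed match is not a measured target, and whether either miRNA acts on these genes was not tested.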

How the data were processed

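FPKM values per gene were deposited by the authors after trimming with NGSQCToolkit and mapping to Sscrofa11.1 with HISAT2, per the labels and the study's methods; the counting program and its use of strand are not given in the sources used here. The miRNA table, which the authors deposited as TPM, holds RPM, and all 2618 values above 0 were whole reads within a tolerance of 0.001. The labels name BWA for the samples taken as these libraries, which share ovary names with the gene libraries.

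Whole reads were recovered for 23477 of 23546 matched genes above 0 FPKM (99.71%, tolerance 0.001), with the longest annotated transcript. LLS and SLS were compared by limma 3.58.1 (R 4.3.3) with a trended variance on log2(FPKM + 1), a pseudocount of 1, Benjamini-Hochberg adjustment over the 12260 genes with at least 1 FPKM in at least 3 libraries, and the study's thresholds (adjusted p below 0.05, log2 change above 1 in size). The alternatives were those of the closing section, with edgeR 4.0.16 and DESeq2 1.42.0 on recovered reads. On simulated reads for this comparison at a dispersion of 0.3 (12049 genes), limma recovered 18.4% of genes changed by 2 and 84.2% of those changed by 3 on the log2 scale, and at a dispersion of 0.05 (12183 genes) it recovered 94.9% and 99%. The common dispersion that edgeR estimated for the real libraries, 0.186, lies between these settings. The simulated libraries held no ovary that stood apart as ZD8 does, and changes smaller than 2 were not simulated. These rates therefore do not give the recovery of smaller changes in the real ovaries.

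The members and lists were chosen with earlier results of these data known. Named were the members, the 2 most abundant genes of each pathway list and those whose groups do not overlap, the most abundant gene of each marker list, and the 3 genes most like BMPR1B and GDF2. BMP10, NOG, PECAM1, GDF10, ZNF488, RBP3, FSHR, AMH, FOXL2, CYP19A1, LHCGR, BMP8A, PRLR, CYP17A1, NR2F2, SMAD7, TMEM100, ATOH8, CXCL12, MYH11, DES, MSX1, GATA2, EPCAM, KRT19 and single liver genes were named after their values were seen. Of the other marker lists, the summed levels of stromal fibroblasts (3370 to 9590 FPKM, led by COL3A1), macrophages (27.8 to 47.9, MRC1), T cells (2.46 to 13.5, CD2), surface epithelium (9.82 to 52, KRT8), erythrocytes (28.8 to 320, HBB) and oocytes (6.52 to 130, GDF9) were computed. The surface epithelium sum joins markers of opposite direction. Without ZD8, EPCAM was called (log2 difference 3.47, adjusted p = 0.0221 by limma), as were 0.167% of all genes. In that fit 3 of the 4 tested markers were lower, among them KRT8 (-1.88) and KRT19 (-2.05), which were not called. Sequences are from RefSeq, Sscrofa11.1. No value columns were left out.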

Additional observations from a re-analysis of the deposited data

How the results depend on the processing

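No member was called in any of the 121 alternative values of the 9 members tested at least once (adjusted p between 0.463 and 1.0 by limma, edgeR or DESeq2), but 30 changed direction, and the cause was not tested. With array weights, which gave ZD8 a weight of 0.135, BMP2 was -0.49, BMP4 -0.52, BMPR1A -0.12 and ACVRL1 -0.014. In that fit BMPR1B went from -0.69 to -0.068 and BMP6 from -0.06 to -0.58, 1 of the 8 members had an unadjusted p under 0.05, as had 1252 of the 12260 genes, and the median of all genes moved from 0.02 to -0.117. By edgeR and DESeq2 BMPR2 was -0.013 and -0.03, and by quantile normalization ENG was 0.063. Without ZD8, alternatives added after seeing the data gave -0.63 and -0.64 for BMP2, -0.68 and -0.69 for BMP4, -0.11 and -0.13 for BMPR1A, 0.039 and 0.03 for ENG by edgeR and DESeq2, and -0.0016 for BMPR2 by DESeq2. With each ovary left out, BMP2 ran from -0.44 to 0.33, BMP4 from -0.47 to 0.36, BMP6 from -0.47 to 0.16, BMPR1A from -0.18 to 0.4, BMPR1B from -1.05 to -0.25, BMPR2 from -0.12 to 0.22, ACVRL1 from 0.045 to 0.63 and ENG from -0.26 to 0.14. BMP7 had a fit only without the filter.

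Over all genes, 0 were called by limma (216 at an unadjusted p under 0.05) and by edgeR (220), 0 with a pseudocount of 0.1, no filter, rescaling to TPM or quantile normalization, 13 with array weights, 20 by DESeq2 and from 0 to 20 with each ovary left out, of which only the fit without ZD8 called any. Without ZD8, edgeR called 0 and DESeq2 187. The counts of members called stayed at 0. No paired analysis was possible because the 6 ovaries come from different sows. Depth limits GDF2 and BMP7, where 3 reads are 0.0109 to 0.0206 and 0.0133 to 0.025 FPKM.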
